A study of Homo sapiens with 6 samples.

Results

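The ribosomal DNA array of chromosome 21 was represented by 9 rows of a table of 35036 non-coding genes, chosen by their identifiers and by a listed start within the array. No other row started in that stretch. The table gave raw read counts for 3 libraries of SiSFPQ cells and 3 of SiCtrl cells. All 6 came from U-2OS, 1 human osteosarcoma line. By the labels' names, SiSFPQ cells had been given an siRNA against SFPQ and SiCtrl cells a control siRNA. Both groups had been treated with actinomycin D, for which the labels give neither dose nor duration. The RNA had been selected for poly(A) tails, which mature ribosomal RNA lacks. The table held 1298658 to 1599566 counts per library. A group without actinomycin D, SFPQ itself and osteosarcoma markers were not analysed here, so the groups and the cell type rest on the labels.

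Ribosomal DNA is a tandem array of near-identical units on the short arms of the acrocentric chromosomes. RNA polymerase I transcribes each unit into a 45S precursor, which is cut into 18S, 5.8S and 28S ribosomal RNA in the nucleolus. Actinomycin D binds GC-rich DNA and blocks this transcription, and the nucleolus then segregates into caps at its surface. SFPQ binds RNA in paraspeckles and is also found in the dark caps of such nucleoli.

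The 9 rows fell at 3 kinds of place in the 4 copies of the unit that the reference assembly GRCh38 holds on chromosome 21, called A to D here in the order of their positions. A row on the minus strand lay over 18S in each copy: ENSG00000280800 in A (8210384 to 8211306), ENSG00000281383 in B (8254592 to 8255514), ENSG00000280614 in C (8393419 to 8394341) and ENSG00000281181 in D (8437629 to 8438551). Each held 1 exon of 923 bases, antisense to bases 754 to 1676 of the 18S gene of RefSeq in A, C and D and to bases 751 to 1673 of the 18S pseudogene RNA18SP5 in B. A second minus-strand row lay before the unit in each copy: ENSG00000295792 in A (8204244 to 8205077), ENSG00000309985 in B (8248435 to 8249271), ENSG00000301656 in C (8387292 to 8388126) and ENSG00000303477 in D (8431461 to 8432306). These rows had 389 to 402 counted bases and ended 224 to 238 bases before the microRNA gene MIR6724 of their copy. The ninth row, ENSG00000280441, was on the plus strand, spanned copies C and D (8380643 to 8454792) and had 5134 counted bases.

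**Figure D1:**
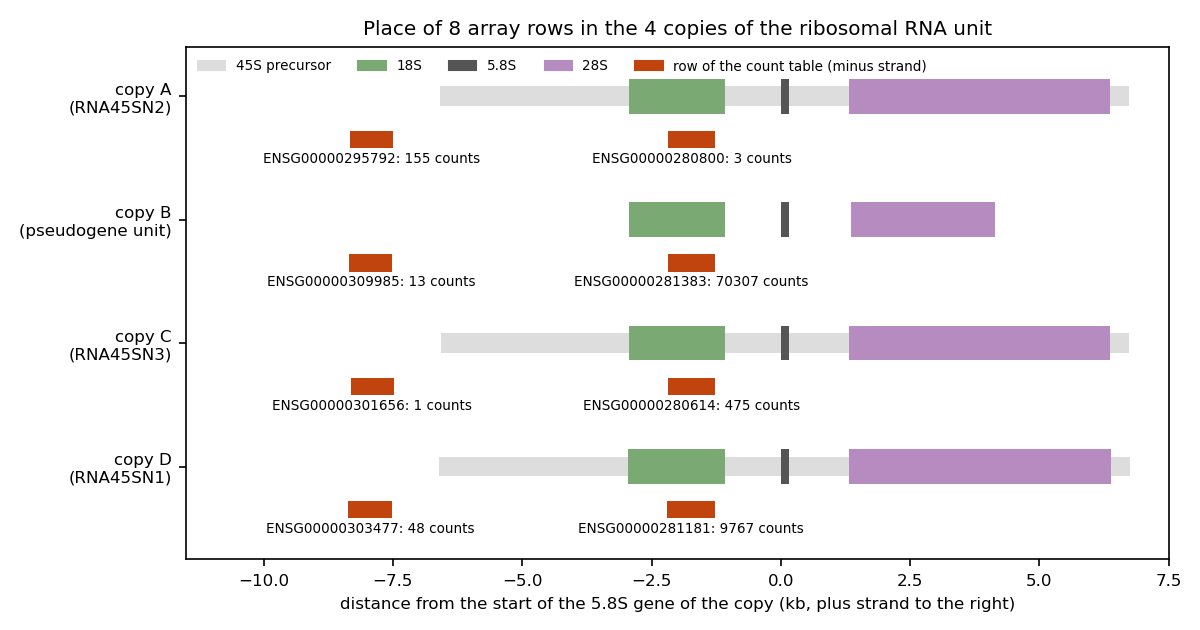
Place of 8 of the 9 rows in copies A to D, as distance in kb from the start of the 5.8S gene of the copy. Grey, green, dark and purple boxes are the 45S, 18S, 5.8S and 28S features and orange boxes the rows, each with its counts over the 6 libraries. The rows have the same 2 places in every copy, while their counts run from 1 to 70307.

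The rows over 18S are shown by sequence because 3 of them cannot be told apart by it. In the GENCODE 29 transcripts, ENSG00000280800, ENSG00000280614 and ENSG00000281181 had the same 923 letters. ENSG00000281383 matched them at 99.6% of aligned positions, with 2 mismatches and 2 gap positions. All of these differences lay within positions 88 to 254 of the transcript, printed 5′ to 3′ on the minus strand with the letters that differ in capitals.
ENSG00000281383: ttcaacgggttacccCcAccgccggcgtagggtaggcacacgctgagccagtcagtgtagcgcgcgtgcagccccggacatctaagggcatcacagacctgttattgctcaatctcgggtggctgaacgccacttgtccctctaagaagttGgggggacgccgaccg
ENSG00000281181: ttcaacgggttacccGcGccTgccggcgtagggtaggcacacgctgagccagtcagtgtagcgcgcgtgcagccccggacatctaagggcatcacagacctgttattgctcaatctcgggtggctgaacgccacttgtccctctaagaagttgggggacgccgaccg
Of the 824 windows of 100 bases in ENSG00000281383, 199 held letters of its own and 625 were also found in the other rows over 18S. For each of the other 3 rows, every one of the 824 windows was found in another row. Among GENCODE 29 transcripts, these windows were found on either strand in the rows over 18S alone. No genome sequence was searched, and the 18S genes opposite these rows were not among the transcripts found. The search therefore does not show every place that these windows match.

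Counts per row did not follow this likeness of sequence. Over the 6 libraries, the 3 rows with the same letters held 9767 counts (ENSG00000281181), 475 (ENSG00000280614) and 3 (ENSG00000280800). ENSG00000281383 held 70307, which is 86.6% of the 81210 counts of the 9 rows. The sources used here do not say how reads that match several copies were assigned, or whether they were counted. A count of 1 row may therefore be the part of a shared pool that was put there. The counting also did not separate the strands: MALAT1 on the plus strand and TALAM1 over it on the minus strand held 72563 and 72552 counts. Reads of 18S ribosomal RNA itself therefore cannot be told from reads of the antisense rows. In bulk RNA of this kind, fewer cells with a transcript and less of it per cell cannot be told apart.

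Of the 9 rows, 6 passed the filter on low counts and entered the edgeR quasi-likelihood fit over 6325 rows of the table. ENSG00000281181 was called higher in SiSFPQ, and ENSG00000280441 and ENSG00000303477 were called lower (Benjamini-Hochberg adjusted p under 0.05). Of all rows tested, 48.4% were called, 24.5% higher and 24.0% lower, so that 3 calls among 6 rows is a share near that of the whole table. ENSG00000303477 passed the filter through its SiCtrl counts alone, so it could be tested only because it was high there.

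The row with the most counts, ENSG00000281383 over the 18S pseudogene of copy B, did not separate the groups. It had 8706, 8205 and 7696 CPM in SiSFPQ, against 8109, 6998 and 8178 CPM in SiCtrl, where CPM is the read count scaled to the table's total and TMM factor. The groups overlapped, and SiCtrl replicate 2 was the lowest library. Its mean was 8202 ± 505 CPM in SiSFPQ and 7762 ± 663 CPM in SiCtrl (SD, n = 3 each), a log2 fold change of 0.08 ± 0.04 (SE; edgeR, adjusted p = 0.091). Without SiCtrl replicate 2 it was -0.0049, and it was called at 0.10 without SiCtrl replicate 1 (adjusted p = 0.049) and at 0.12 without SiSFPQ replicate 3 (adjusted p = 0.024). Per kb of counted sequence this row stood at 8887 ± 547 CPM in SiSFPQ, against 1259 ± 85.5 CPM per kb for ENSG00000281181 in the same libraries.

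ENSG00000281181, over the 18S gene of copy D, had 1253, 1112 and 1120 CPM in SiSFPQ, against 1129, 894 and 1151 CPM in SiCtrl. It was called higher by 0.14 ± 0.05 on the log2 scale (edgeR, adjusted p = 0.018), although the groups overlapped and their means, 1162 ± 78.9 CPM in SiSFPQ and 1058 ± 143 CPM in SiCtrl, differed by less than the SD in SiCtrl. The call was lost without either of 2 libraries: without SiCtrl replicate 2 the log2 fold change was 0.01 (adjusted p = 0.90), and without SiSFPQ replicate 1 it was 0.08 (adjusted p = 0.34). DESeq2 did not call it (adjusted p = 0.52).

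ENSG00000280614, over the 18S gene of copy C, had 56.3, 56.3 and 63.5 CPM in SiSFPQ, against 29.4, 46.7 and 70.6 CPM in SiCtrl. The SiCtrl libraries lay on either side of all SiSFPQ libraries, and the log2 fold change of 0.27 ± 0.14 was not called (edgeR, adjusted p = 0.095). It was 0.60 and called without SiCtrl replicate 3 (adjusted p = 0.0015) and 0.01 without SiCtrl replicate 1. ENSG00000280800, over the 18S gene of copy A, had 0 counts in every SiSFPQ library and 1 in every SiCtrl library, too few for a fold.

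Summed over copies, the rows over 18S held 99.2% of the array's counts. The sum was 1.03%, 0.958% and 0.904% of the table's counts in SiSFPQ, against 0.905%, 0.775% and 0.923% in SiCtrl. In CPM it averaged 9423 ± 569 in SiSFPQ and 8869 ± 808 in SiCtrl (SD, n = 3 each), and the groups overlapped. The log2 fold change of the sum was 0.09 ± 0.04 (edgeR, adjusted p = 0.058), and a two-sided exact permutation test of its CPM gave p = 0.5, where 0.1 is the smallest that 3 libraries against 3 allow. The sum depended on single libraries and on scaling: without SiCtrl replicate 2 it was -0.0014 (adjusted p = 0.98). It was called at 0.11 without SiCtrl replicate 1, at 0.13 without SiCtrl replicate 3 and at 0.13 without SiSFPQ replicate 3, with adjusted p from 0.017 to 0.033, and at 0.15 with plain library totals (adjusted p = 0.00055).

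The 2 rows with most of these reads took similar shares in every library. ENSG00000281383 took 86.9%, 87.5% and 86.7% of the counts over 18S in SiSFPQ, against 87.5%, 88.1% and 87.0% in SiCtrl. ENSG00000281181 took 12.5%, 11.9% and 12.6% in SiSFPQ, against 12.2%, 11.3% and 12.2% in SiCtrl. The groups overlapped for both shares. ENSG00000280614 varied more, with 0.562%, 0.601% and 0.715% in SiSFPQ, against 0.318%, 0.589% and 0.751% in SiCtrl, which also overlapped. ENSG00000280800 had no reads in SiSFPQ and 1 in each SiCtrl library. The mean share of ENSG00000281383 differed by -0.50 percentage points (SiSFPQ minus SiCtrl, two-sided exact permutation test, p = 0.3).

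**Figure D2:**
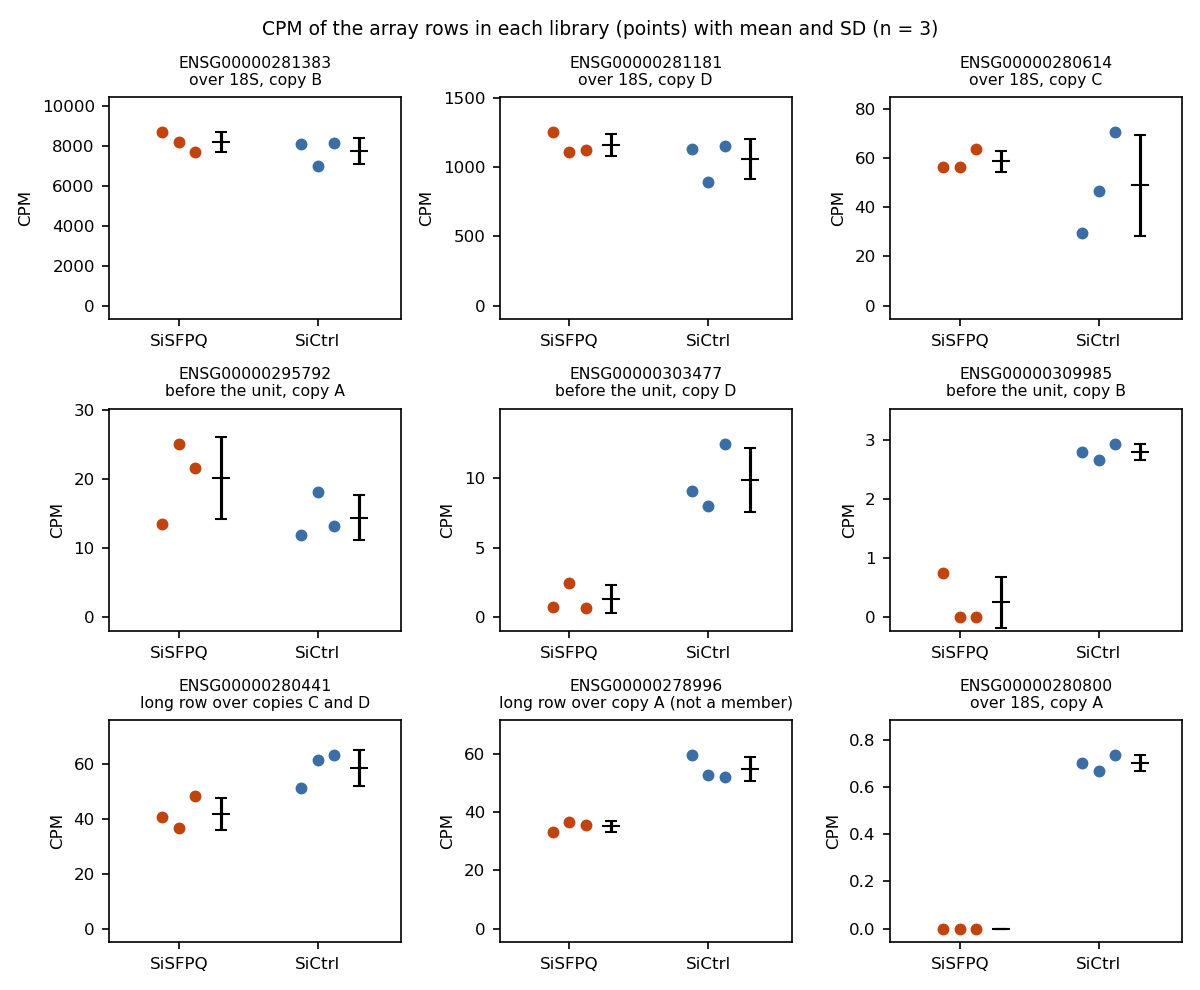
CPM of 8 of the 9 rows and of ENSG00000278996, a row that starts before the array, by library, with the mean and SD of each group (n = 3) in black. The groups overlap for the top 3 rows over 18S and for ENSG00000295792. SiSFPQ lies below SiCtrl in ENSG00000303477, ENSG00000309985, ENSG00000280441 and ENSG00000278996, and in ENSG00000280800, which had 0 or 1 counts. Groups did not overlap for 54.0% of all rows tested.

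The rows before the unit held few reads, and the row with the largest difference held 48 in all. ENSG00000303477, before copy D, had 0.750, 2.45 and 0.635 CPM in SiSFPQ, against 9.11, 8.01 and 12.5 CPM in SiCtrl. These are 1, 4 and 1 reads in SiSFPQ, against 13, 12 and 17 reads in SiCtrl. The groups did not overlap, which held for 54.0% of all rows tested. Its log2 fold change was -2.81 ± 0.50 (edgeR, adjusted p = 1.5e-07), for a row that passed the filter through SiCtrl alone. With no filter on low counts, where it entered the fit whatever its group levels, the value was -2.82 (adjusted p = 1.3e-06).

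ENSG00000309985, before copy B, had 1, 0 and 0 counts in SiSFPQ, against 4, 4 and 4 counts in SiCtrl. It was below the filter. The ratio of its summed counts, adjusted for library size, was 0.0786 with an exact 95% interval of 0.00184 to 0.531 that covers counting error only. With no filter on low counts edgeR called it lower (adjusted p = 0.022). ENSG00000301656, before copy C, had 1 count in all, in SiSFPQ replicate 1.

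ENSG00000295792, before copy A, held most of the reads of these rows. It had 13.5, 25.1 and 21.6 CPM in SiSFPQ, against 11.9, 18.02 and 13.2 CPM in SiCtrl. The groups overlapped through SiSFPQ replicate 1, and the log2 fold change of 0.50 ± 0.24 was not called (edgeR, adjusted p = 0.080). It was 0.69 and called without that library (adjusted p = 0.021), and 0.68 and called without SiCtrl replicate 2 (adjusted p = 0.044). With any other library left out it was not called, and it was as low as 0.30 without SiSFPQ replicate 2 (adjusted p = 0.40).

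How alike the rows before the unit are in sequence was not computed here, so whether their reads are shared between copies is not known. Taken as 1 pool, the rows before the unit had 21, 45 and 35 counts in SiSFPQ, against 34, 43 and 39 counts in SiCtrl. In CPM the pool averaged 21.8 ± 5.90 in SiSFPQ and 27.1 ± 2.80 in SiCtrl (SD, n = 3 each), and the groups overlapped. Its log2 fold change was -0.28 ± 0.21 (edgeR, adjusted p = 0.26). It was -0.12 without SiSFPQ replicate 1 (adjusted p = 0.70) and -0.49 without SiSFPQ replicate 2 (adjusted p = 0.094). For ENSG00000303477 and ENSG00000295792 alone the sum had 19, 45 and 35 counts in SiSFPQ, against 30, 39 and 35 counts in SiCtrl, which is -0.16 ± 0.21 on the log2 scale (edgeR, adjusted p = 0.57). Neither sum was called lower, at this low depth.

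The shares of the pool by row restate these counts and were computed after they had been seen, so they are given as a description. ENSG00000295792 of copy A took 85.7%, 91.1% and 97.1% of the pool in SiSFPQ, against 50%, 62.8% and 46.2% in SiCtrl. ENSG00000303477 of copy D took 4.76%, 8.89% and 2.86% of it in SiSFPQ, against 38.2%, 27.9% and 43.6% in SiCtrl. Neither share overlapped between the groups. The mean share of ENSG00000295792 was 91.3% ± 5.72 in SiSFPQ and 53.0% ± 8.71 in SiCtrl (SD, n = 3 each), a difference of 38.3 percentage points.

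**Figure D3:**
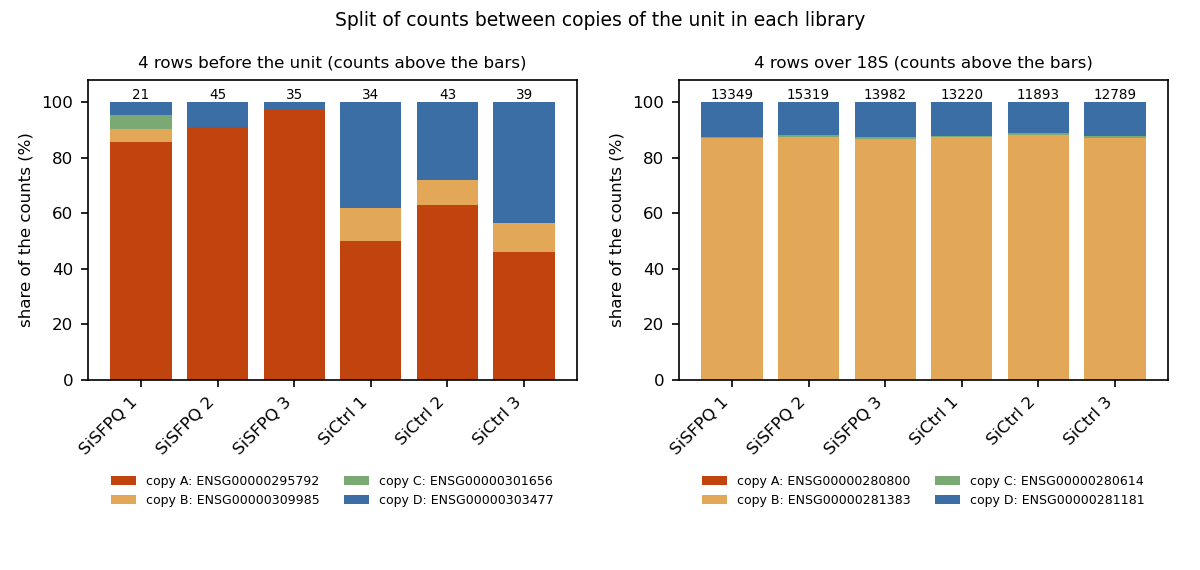
Share of counts in each copy of the unit, by library, for the rows before the unit and the rows over 18S, with the counts of each library above its bar. Copy A takes 85.7% to 97.1% of the reads before the unit in SiSFPQ and 46.2% to 62.8% in SiCtrl, while copy B takes 86.7% to 88.1% of the reads over 18S in all libraries.

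The long plus-strand row ENSG00000280441, which the reference tags as a host of non-coding RNAs, was lower in SiSFPQ. It had 40.5, 36.7 and 48.3 CPM in SiSFPQ, against 51.2, 61.4 and 63.2 CPM in SiCtrl. The groups of this row did not overlap, which held for 54.0% of all rows tested. Its mean was 41.8 ± 5.89 CPM in SiSFPQ and 58.6 ± 6.49 CPM in SiCtrl (SD, n = 3 each), and it fell by 0.48 ± 0.15 on the log2 scale (edgeR, adjusted p = 0.0028). The call held without any 1 library, with adjusted p from 0.0011 to 0.043, and DESeq2 did not make it (adjusted p = 0.10).

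Its GENCODE 29 transcript shares every window of 50, 100 and 150 bases with that of ENSG00000278996, a plus-strand row over copy A that starts before the array (8131903 to 8227646). GENCODE 29 gives ENSG00000280441 another span than the count table does. Its transcript there held 2449 different windows of 50 bases, against 5134 counted bases, so likeness over all counted bases is not known. ENSG00000278996 was named after its values had been seen. It had 33.0, 36.7 and 35.6 CPM in SiSFPQ, against 59.6, 52.7 and 52.2 CPM in SiCtrl, and fell by 0.64 ± 0.16 (edgeR, adjusted p = 0.00017). With both rows lower, their sum had to be lower too. The sum had 73.5, 73.4 and 83.8 CPM in SiSFPQ, against 110.8, 114.1 and 115.4 CPM in SiCtrl. On the log2 scale this is -0.56 ± 0.11 (edgeR, adjusted p = 2.1e-06). ENSG00000280441 took 55.1%, 50% and 57.6% of this sum in SiSFPQ, against 46.2%, 53.8% and 54.8% in SiCtrl, and these shares overlapped between the groups (two-sided exact permutation test, p = 0.5).

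Summed over all 9 rows, the array had 10071, 9438 and 8950 CPM in SiSFPQ, against 9343, 8029 and 9492 CPM in SiCtrl. The log2 fold change was 0.08 ± 0.04 (edgeR, adjusted p = 0.073; two-sided exact permutation test of CPM, p = 0.5). Without ENSG00000281383 the other 8 rows gave 0.11 ± 0.05 (edgeR, adjusted p = 0.063), the rows of copies A and B 0.08 ± 0.04 (adjusted p = 0.089) and the rows of copies C and D, with ENSG00000280441, 0.10 ± 0.05 (adjusted p = 0.068). Each sum rests mostly on a single row. ENSG00000281181 held 9767 of the 10903 counts of the 8 rows and of the 10732 counts of copies C and D. ENSG00000281383 held 70307 of the 70478 counts of copies A and B. None of these sums was called with all libraries, and each was called without some single library. The sum of 9 rows was called without SiCtrl replicate 3 (0.11, adjusted p = 0.038) and without SiSFPQ replicate 3 (0.12, 0.022). The sum of 8 rows was called without SiCtrl replicate 3 (0.17, adjusted p = 0.0089) and without SiSFPQ replicate 2 (0.14, 0.042), as was that of copies C and D (0.17, 0.0097, and 0.14, 0.039). The sum of copies A and B was called without SiSFPQ replicate 3 (0.12, adjusted p = 0.024). Without SiCtrl replicate 2 these sums lay between -0.0099 and -0.0040. That library had the lowest share of counts over 18S.

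**Figure D4:**
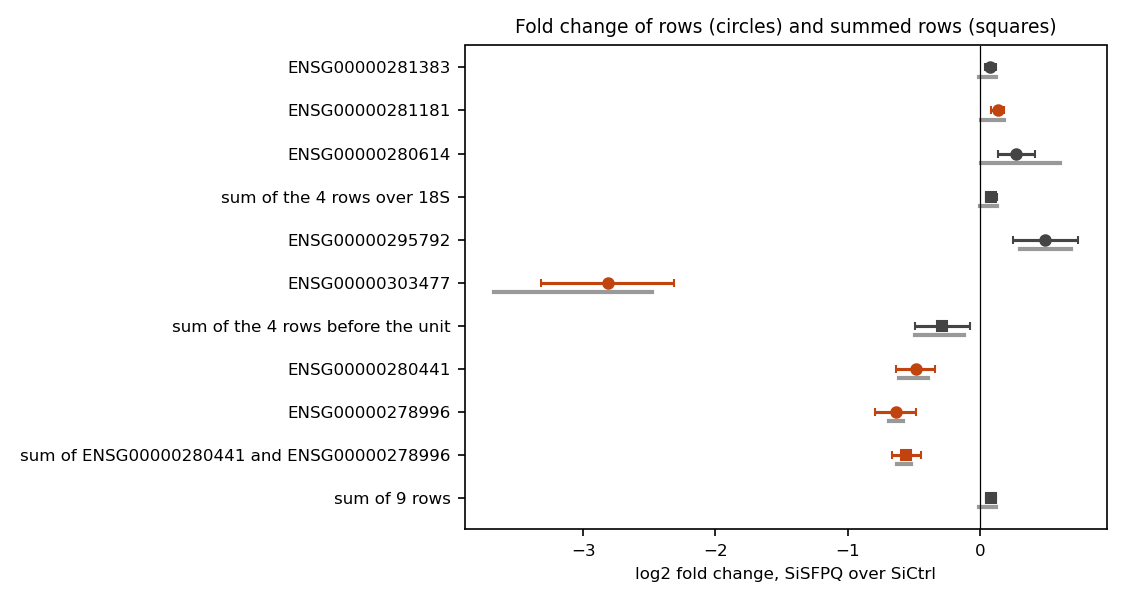
Log2 fold change of SiSFPQ over SiCtrl for single rows (circles) and summed rows (squares), with SE bars, orange where the edgeR adjusted p was under 0.05. Grey lines give the range with 1 library left out. The sum over 18S lies at 0.09, and the sum before the unit lies at -0.28 between its rows at 0.50 and -2.81.

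Listed host genes of small nucleolar RNAs were higher in SiSFPQ, on a list made with such rises known. Of the 28 names of a list of nucleolar RNAs and related genes, 12 were in the table and tested. No ribosomal RNA precursor was among them. Of the 12, 10 rose and 2 fell, against 24.5% and 24.0% of all rows tested. The median log2 fold change of the 12 was 0.31, against 0.01 over all rows tested. The risers were host genes of small nucleolar RNAs, many of which guide modification of ribosomal RNA. SNHG8 averaged 1380 ± 79.1 CPM in SiSFPQ and 794 ± 18.8 CPM in SiCtrl (SD, n = 3 each; log2 fold change 0.80, edgeR, adjusted p = 1.3e-52). GAS5 rose by 0.52, SNHG5 by 0.71 and SNHG6 by 0.44. MIR663AHG fell by 0.83 and LINC01116 by 0.26, and the call of LINC01116 was lost with DESeq2 (adjusted p = 0.19), without SiCtrl replicate 2 (0.084) and without SiSFPQ replicate 3 (0.099). Rises of these host genes were known from earlier results of these data when the list was made.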

How the data were processed

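The deposited table held whole-number read counts, not normalised, for each gene, with 1298658 to 1599566 counts per library, part of each library. Per the labels' protocols, total RNA was poly(A)-selected and made into stranded libraries. No source used here names aligner, counter or build. All 13886 identifiers shared with GENCODE 29 lay on the same chromosome and 13874 overlapped their GRCh38 position. Among them were 5 of the 9 rows, so coordinates are read as GRCh38. RefSeq GRCh38.p14 named neighbours. The labels name no batches and no separate cultures, so p-values measure only the spread between these samples.

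The whole table was fitted with edgeR 4.0.16 (R 4.3.3): filterByExpr, TMM, robust quasi-likelihood, two-sided, Benjamini-Hochberg at 0.05. SE is the log2 fold change over the square root of F. Summed rows replaced their members in the table before the fit. Libraries of 1 group differed beyond sampling noise (chi-square per degree of freedom 1.24 to 1.40). The fit was tested on simulated data. Every simulated row had the same spread beyond counting error, and changes were put in few rows, none with the lowest counts. The fit recovered 92 of 100 changes of 1 on the log2 scale and 38 of 100 changes of 0.5. It called 8 unchanged rows. In the data 48.4% of tested rows were called, and SE ran from 0.04 for ENSG00000281383 to 0.50 for ENSG00000303477. Changes of 0.5 or less may be missed here too, at rates that the simulation does not give for single array rows. Rows at the same place were set by distance from the 5.8S gene, since copy B has no annotated 45S start. Members, lists and sets were chosen with earlier results of these data known. Named were the members, 4 listed RNAs with the smallest adjusted p, and 3 rows most like ENSG00000281383. Transcripts were aligned with Biopython 1.88. Exact permutation tests covered all 20 splits. Alternatives used DESeq2 1.42.0, limma 3.58.1, other scalings and filters, a replicate block and each library left out.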

Additional observations from a re-analysis of the deposited data

How the results depend on the processing

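With plain library totals the median log2 fold change of all rows rose to 0.071. These sums were then called: 0.15 for the 9 rows, 0.17 for the 8 rows, 0.15 over 18S, 0.14 for copies A and B and 0.17 for copies C and D. Of the 6 array rows tested, 4 were called higher with these totals, against 1756 of 6325 rows in the whole table. limma-voom also called the 9 rows (0.085), the rows over 18S (0.089) and copies A and B (0.081). It called 2 of 6 array rows higher, against 1524 of 6325 rows in the whole table. With no filter 0 of 9 array rows were called higher and 3 lower, against 1443 and 1431 of 21006 rows in the whole table. DESeq2 called 0 of 6 array rows higher and 1 lower, against 854 and 899 of 7974 rows in the whole table. It called 2 higher and 7 lower on the short arm and 1 lower in the nucleolar list. That list had 1 lower also with plain totals and with no filter. The causes were not tested. With 1 library left out, log2 fold changes ran from -0.0049 to 0.12 for the 9 rows, -0.0049 to 0.17 for the 8 rows, -0.0014 to 0.13 over 18S, -0.0040 to 0.12 for copies A and B, -0.0099 to 0.17 for copies C and D and -0.39 to 0.041 for the sum of ENSG00000303477 and ENSG00000295792. The lowest value came without SiCtrl replicate 2 in all but the last, whose highest came without SiSFPQ replicate 1. In those settings 1 to 2 rows were called higher, 2 lower, and 1 to 2 lower in the nucleolar list. ENSG00000281383 ran from -0.0049 to 0.12, and the share of ENSG00000280614 among the 9 rows from -0.041 to 0.17 percentage points. The call of the sum of ENSG00000280441 and ENSG00000278996 kept its direction and its side of the threshold in every alternative run. ENSG00000278996 had been added after its fall was seen, so these runs describe a fall already known. The shared numbers did not mark pairs (same-numbered deviations correlated at -0.0040, 0.0010 and 0.0075). A fit with the replicate block called 1535 rows higher and 1515 lower in the whole table, and gave -0.30 for the rows before the unit, with no change of call. Low counts limit the rows before the unit, with 217 counts in all.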

Other observations

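Of the other 61 rows on the short arm of chromosome 21, 21 were tested, 6 rose and 11 fell in SiSFPQ, against 24.5% and 24.0% of all rows tested (edgeR). The median log2 fold change of the 21 was -0.38. They include ENSG00000293062, which fell by 0.83, LINC01667, which fell by 1.06, and ENSG00000280145, which rose by 0.91. ENSG00000278996, whose fall is given above, is also among them. Searching 6314 rows with a mean of at least 5 CPM, those whose log2 CPM ran most alike to that of ENSG00000281383 over the 6 libraries were KDM7A-DT, ENSG00000305368 and TSC22D1-AS1, with Pearson's r of 0.97, 0.97 and 0.96; with 6 points and so many rows searched these are a description only.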
